A study of Mus musculus with 9 samples.

Results

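The transcription factor ATF4 and 9 genes that it is known to activate or that make or import amino acids were described in mouse lymphomas. The 10 genes were Atf4, Ddit3, Trib3, Chac1, Asns, Phgdh, Psat1, Psph, Slc7a11 and Slc3a2, out of 18194 genes named on the array. The set was chosen by a measured value, the higher Asns level in 1 of the genotypes in these same arrays, so the Asns difference is given as a description, without a test. All 20 probe sets that the platform annotation assigns to these genes were read, out of 45037 in the table.

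When amino acids run short or unfolded proteins build up, kinases phosphorylate the initiation factor eIF2, most translation slows and the Atf4 mRNA is translated more. ATF4 protein then switches on genes for amino acid synthesis, amino acid uptake and tRNA charging, and, under lasting stress, genes that limit growth or survival. Because ATF4 is controlled largely at translation, its mRNA level need not follow its activity. Some lymphoid leukaemias are known to need asparagine from outside because they make little asparagine synthetase, and MYC is known to raise serine synthesis.

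RNA was measured in 9 lymphomas, 1 Affymetrix MOE430 2.0 array each. In 4 of them the mice carried Eμ-Myc alone, and in 5 they carried Eμ-Myc and Eµ-TTP-1, called double-transgenic here. Eμ is the immunoglobulin heavy chain enhancer, which drives a transgene in B lineage cells, and TTP (gene Zfp36) is a protein that binds AU-rich elements and speeds the decay of their mRNAs. All mice carried Eμ-Myc on a background that was 94% C57BL/6, and the labels used here give neither ages nor treatments. The series title names TTP as a suppressor of Myc-driven lymphoma, and the comparison asks how tumours that grew with the TTP transgene differ in mRNA from those without it. The tumours are those that formed, so mice in which none formed are not represented.

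Values are log2 intensities, on which 1 unit is a doubling. On the linear scale, before log2, the median intensity per array was 12.2 to 13.4. A log2 level of 4, a linear intensity of 16, served as the limit below which values are weak and folds poorly determined, and 47.6% to 48.8% of probe sets per array exceeded it. Zfp36 read 10.57 ± 0.41 (SD, n = 4) in Eμ-Myc and 10.55 ± 0.38 (SD, n = 5) in double-transgenic lymphomas, and the group ranges overlapped; how much of the transgene's mRNA this probe set reads is not stated in the labels. All 6 pan-B markers named on the array passed the limit, and the lowest of their values was 8.32. In bulk tumours, fewer cells of a type and less RNA per cell cannot be told apart. Precision is limited by how few arrays there are.

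Sequences at the starts of 4 of the genes are shown because they hold letters that match the core of the element through which ATF4 is known to act, the C/EBP-ATF response element. The core, searched as TGATGNAA on both strands, was looked for from 250 bases before to 50 bases after each RefSeq transcription start (build GRCm38.p6). At least 1 match was present in 4 of the 10 genes, against 4.51% of the 27025 genes with a promoter entry and 3.97% of all 32851 promoter windows of 300 bases. Capitals mark the match and every sequence runs 5′ to 3′ on the strand of the gene.
Asns (chr6:7693210-7693309, minus strand): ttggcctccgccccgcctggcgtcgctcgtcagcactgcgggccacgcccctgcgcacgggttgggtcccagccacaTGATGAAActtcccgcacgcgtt
Slc7a11 (chr3:50443614-50443713, minus strand): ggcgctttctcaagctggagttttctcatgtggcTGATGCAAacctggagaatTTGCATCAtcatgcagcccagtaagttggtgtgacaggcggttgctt
Chac1 (chr2:119350992-119351091, plus strand): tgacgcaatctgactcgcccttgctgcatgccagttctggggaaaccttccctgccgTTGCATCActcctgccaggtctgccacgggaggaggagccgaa
Trib3 (chr2:152344028-152344057, minus strand): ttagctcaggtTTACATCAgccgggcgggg

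In Asns the match began at position -23 from the start. Slc7a11 held 2 matches on opposite strands, at -66 and -47, and Chac1 held 1 at -193. The Trib3 match lay just after the annotated start, at position 15. No match was found in these windows of Atf4, Ddit3, Phgdh, Psat1 (2 annotated starts), Psph and Slc3a2, which says only that these letters are not in this window. Of the 4 genes with a match, Asns alone was well above the limit in the lymphomas. Trib3, Chac1 and Slc7a11 were near or below it.

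Asns, which encodes asparagine synthetase, the enzyme that makes asparagine from aspartate and glutamine, varied more between lymphomas than any other of the 10 genes. In the Eμ-Myc lymphomas its main probe set read 11.78 in replicate 1, 9.29 in replicate 2, 9.49 in replicate 3 and 8.64 in replicate 4. In the double-transgenic lymphomas it read 12.15, 10.77, 11.95, 11.59 and 12.17 in replicates 1 to 5. Eμ-Myc replicate 1 thus lay inside the double-transgenic range, while the other 3 Eμ-Myc lymphomas lay below all 5 double-transgenic ones, and the groups overlapped.

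The Asns means were 9.80 ± 1.37 (SD, n = 4) and 11.73 ± 0.58 (SD, n = 5), a log2 difference of 1.92 (SE 0.61), double-transgenic minus Eμ-Myc, or 3.80-fold. This probe set is marked _x_at by the manufacturer, meaning that some of its probes may also bind unrelated transcripts. The second Asns probe set carries no such mark and read 11.03, 8.90, 8.69 and 7.80 in the Eμ-Myc lymphomas, against 10.39 to 11.44 in the double-transgenic ones. Its difference was 1.95 (SE 0.58), and both probe sets gave the same order of lymphomas apart from Eμ-Myc replicates 2 and 3. Without Eμ-Myc replicate 1 the difference on the main probe set was 2.58. Among all 10172 genes tested, 0.698% had a difference as high as that of Asns or higher. That share describes the size of the difference and is not a test, since the difference chose the set.

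The lymphomas low in Asns were high in granulocyte markers. The summed intensity of the 6 granulocyte markers was 18357 in Eμ-Myc replicate 2, 18008 in replicate 3, 6987 in replicate 4 and 18940 in double-transgenic replicate 2. It was 771 in Eμ-Myc replicate 1, and the other 4 double-transgenic lymphomas lay at 178 to 1704. The 4 lymphomas with the lowest Asns were therefore the 4 with the highest granulocyte sum. The sum thus spanned 771 to 18357 among Eμ-Myc lymphomas, and 178 to 18940 among double-transgenic ones. Of the 6 markers, 5 passed the limit and Elane did not. Summed pan-B markers spanned 45699 to 81884 among Eμ-Myc lymphomas, against 59474 to 72072 among double-transgenic ones. The part of other cell types in the Asns levels was not tested.

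**Figure D1:**
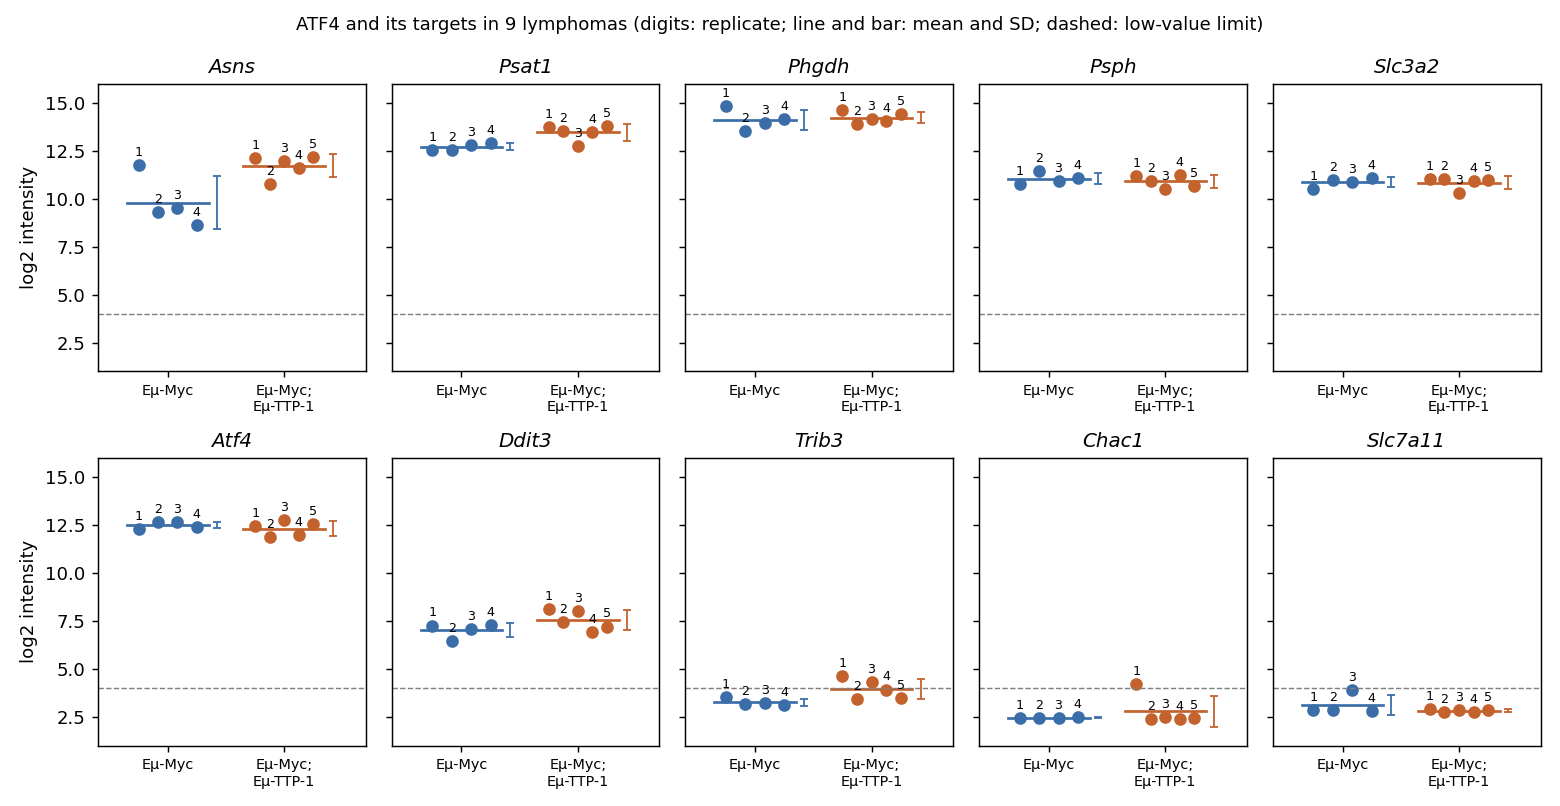
Log2 intensity (y axis) of the main probe set of each of the 10 genes in the 4 Eμ-Myc (blue) and 5 double-transgenic (orange) lymphomas; points are single lymphomas with the replicate number, lines are means, bars SD, and the dashed line is the limit of 4. Asns spans 8.64 to 12.17, Psat1 lies higher in 4 of the 5 double-transgenic lymphomas, and Trib3, Chac1 and Slc7a11 lie near or under the limit.

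Serine synthesis runs through 3 enzymes in turn: PHGDH, PSAT1 and PSPH. Of their genes, Psat1 had the highest difference, those of Phgdh and Psph lay near 0, and none passed the test over all genes. Psat1, for the phosphoserine aminotransferase of the middle step, read 12.54, 12.56, 12.80 and 12.91 in Eμ-Myc replicates 1 to 4. In double-transgenic replicates 1 to 5 it read 13.72, 13.52, 12.74, 13.49 and 13.81. Of the double-transgenic lymphomas, 4 lay above every Eμ-Myc lymphoma, while replicate 3 lay within the Eμ-Myc range.

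For Psat1 the means were 12.71 ± 0.18 (SD, n = 4) and 13.46 ± 0.42 (SD, n = 5). The log2 difference was 0.75 (95% interval 0.24 to 1.26), or 1.68-fold, with an adjusted p of 0.845 by limma over all genes. The second Psat1 probe set had a difference of 0.58 (SE 0.21) with the same lymphoma, double-transgenic replicate 3, at the bottom of its group. Of all tested genes, 5.96% had a difference as high as that of Psat1 or higher. With each lymphoma left out in turn, the Psat1 difference stayed between 0.66 and 0.93.

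Phgdh, for the phosphoglycerate dehydrogenase that commits 3-phosphoglycerate to serine, read 14.82, 13.55, 13.96 and 14.14 in Eμ-Myc replicates 1 to 4 and 14.63, 13.89, 14.14, 14.05 and 14.42 in double-transgenic replicates 1 to 5. The 3 highest values thus came from 1 Eμ-Myc lymphoma (replicate 1) and from replicates 1 and 5 of the double-transgenic ones, and the lowest from Eμ-Myc replicate 2. The log2 difference was 0.11 (95% interval -0.49 to 0.70, limma adjusted p = 0.974). All 4 Phgdh probe sets are marked _x_at, and their differences ran from -0.12 to 0.15, so the sign depended on the probe set. It also turned without Eμ-Myc replicate 2, to -0.081.

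Psph, for the phosphatase of the last step, read 10.75 to 11.42 in Eμ-Myc lymphomas, against 10.51 to 11.22 in those with both transgenes. Its difference was -0.14 (95% interval -0.60 to 0.32, limma adjusted p = 0.938), and the group ranges overlapped widely. The highest values of the 3 genes came from different lymphomas, for Psat1 double-transgenic replicate 5, for Phgdh Eμ-Myc replicate 1 and for Psph Eμ-Myc replicate 2. Double-transgenic replicates 5 and 1, the highest in Psat1, were also among the 3 highest in Phgdh.

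Levels of chromosomal neighbours moved with some of these genes. For each gene, the median deviation of 40 neighbouring tested genes, 20 on each side, from their own medians over the 9 lymphomas was set beside it. Around Phgdh on chromosome 3 the neighbours stood at 0.28 in Eμ-Myc replicate 1, 0.35 in double-transgenic replicate 1 and 0.22 in double-transgenic replicate 5, where Phgdh itself deviated by 0.68, 0.49 and 0.28. In Eμ-Myc replicate 2 the neighbours stood at -0.17 and Phgdh at -0.59. With the neighbours' median subtracted, the Phgdh difference between the genotypes was 0.026, and with the median of the whole chromosome subtracted it was -1.29e-04.

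On chromosome 19, neighbours of Psat1 stood at -0.30 in double-transgenic replicate 3, where Psat1 was lowest in its group, and at 0.32 in replicate 5, where it was highest. In double-transgenic replicates 1 and 2 Psat1 deviated by 0.81 and 0.61, with neighbours at 0.03 and 0, and in Eμ-Myc replicate 3 by -0.11, with neighbours at 0.17. With the neighbours' median subtracted, the Psat1 difference was 0.67. Around Asns on chromosome 6 the neighbours stayed between -0.23 and 0.25, against Asns deviations from -2.95 to 0.58, and the Asns difference with neighbours subtracted was 1.80. Whether copy number changed was not tested.

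**Figure D2:**
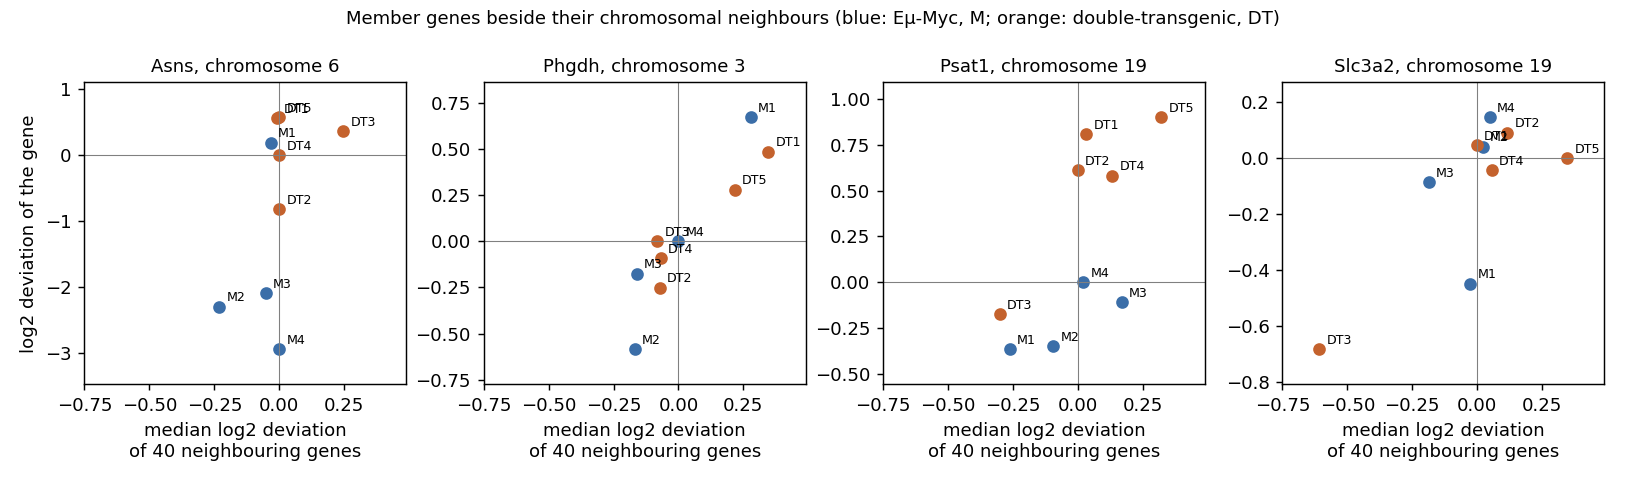
Log2 deviation of Asns, Phgdh, Psat1 and Slc3a2 from their median over 9 lymphomas (y axes, scaled per gene) against the median log2 deviation of 40 neighbouring genes (x axis), for Eμ-Myc (M, blue) and double-transgenic (DT, orange) lymphomas with replicate number. Phgdh is high in M1, DT1 and DT5 where its neighbours are high, Slc3a2 is low in DT3 where its neighbours stand at -0.61, and Asns varies over a range far wider than its neighbours.

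Of the 2 uptake genes, Slc3a2 had a difference near 0 and Slc7a11 lay under the limit. Slc3a2 encodes the heavy chain (4F2hc) that carries several amino acid transporters to the cell surface, and it read 10.51, 10.999, 10.87 and 11.10 in Eμ-Myc replicates 1 to 4. In double-transgenic replicates 1 to 5 it read 11.003, 11.05, 10.28, 10.92 and 10.96. All lymphomas but double-transgenic replicate 3 and Eμ-Myc replicate 1 lay within 10.87 to 11.10. The log2 difference was -0.03 (95% interval -0.48 to 0.42, limma adjusted p = 0.991), and without double-transgenic replicate 3 it was 0.11. In that lymphoma the neighbours of Slc3a2 on chromosome 19 stood at -0.61 and Slc3a2 at -0.68. In double-transgenic replicate 5 the neighbours stood at 0.35 and Slc3a2 at 0, and in Eμ-Myc replicate 1 the neighbours stood at -0.03 and Slc3a2 at -0.45.

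Slc7a11 encodes the cystine and glutamate exchanger xCT, which pairs with the Slc3a2 product. Neither of its probe sets passed the limit in any lymphoma. The main one read 2.85, 2.89, 3.89 and 2.83 in Eμ-Myc replicates 1 to 4, and between 2.75 and 2.90 in every double-transgenic lymphoma. Eμ-Myc replicate 3 stood above the rest on this probe set and, at 2.45 against 1.86 to 1.93, on the other one, yet still under the limit. The mean difference on the main probe set was -0.28, which includes that lymphoma and is poorly determined at these levels.

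Atf4 mRNA was abundant in every lymphoma and its sign depended on the probe set. The main probe set, marked _x_at, read 12.32, 12.65, 12.66 and 12.43 in Eμ-Myc replicates 1 to 4 and 12.44, 11.86, 12.75, 11.98 and 12.57 in double-transgenic replicates 1 to 5. Its log2 difference was -0.19 (95% interval -0.66 to 0.28, limma adjusted p = 0.913). The second Atf4 probe set, without that mark, read 11.88 to 12.40 in Eμ-Myc lymphomas, against 11.85 to 12.37 in double-transgenic ones, a difference of 0.10 (SE 0.16). On both probe sets the lowest value came from double-transgenic replicate 2, and the groups overlapped. The remaining Atf4 probe set lay below the limit in every lymphoma, at 2.73 to 3.01.

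Ddit3, Trib3 and Chac1, the targets most tied to stress, had their highest values in the same tumour, double-transgenic replicate 1. This was not particular to them, since some of the further ATF4 targets described below also had their highest value there. Ddit3 encodes CHOP, a transcription factor that promotes cell death under lasting stress, and it read 7.27, 6.48, 7.06 and 7.30 in Eμ-Myc replicates 1 to 4. In double-transgenic replicates 1 to 5 it read 8.12, 7.45, 8.02, 6.94 and 7.22. Replicates 1, 2 and 3 lay above every Eμ-Myc lymphoma and replicates 4 and 5 within their range. The log2 difference was 0.52 (95% interval -0.14 to 1.18, limma adjusted p = 0.860). The second Ddit3 probe set read 6.49 in double-transgenic replicate 1 and 3.61 to 4.51 in the other 8 lymphomas. It exceeded the limit of 4 in 4 of 9 lymphomas. In double-transgenic replicate 3 it read 3.61, under the limit, so it cannot check the high value seen there.

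Trib3 encodes a pseudokinase that binds and restrains ATF4 and CHOP. It exceeded the limit in 2 of 9 lymphomas, double-transgenic replicates 1 (4.65) and 3 (4.31). Replicates 2, 4 and 5 read 3.42, 3.93 and 3.51, and Eμ-Myc replicates 1 to 4 read 3.52, 3.19, 3.22 and 3.10. The second Trib3 probe set lay below the limit in every lymphoma, and its 3 highest values, 3.41, 3.38 and 3.14, came from double-transgenic replicates 1, 3 and 4. The mean difference was 0.71, which is poorly determined at these levels. Trib3 did not enter the main test. When all 18194 genes were fitted without the limit, its unadjusted p was 0.0278 and its limma adjusted p 0.724. In that fit the unadjusted limma p was 0.404 for Chac1 and 0.234 for Slc7a11, with an adjusted p of 0.724 for both.

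Chac1 encodes an enzyme that degrades glutathione and is induced late in the response. Its single probe set read 4.20 in double-transgenic replicate 1 and 2.38 to 2.50 in the other 8 lymphomas. Chac1 was thus above the limit in 1 lymphoma only, the one with the highest Ddit3 and Trib3. Asns was at 12.15 there and at 12.17 in double-transgenic replicate 5, in which Chac1 was at 2.45.

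**Figure D3:**
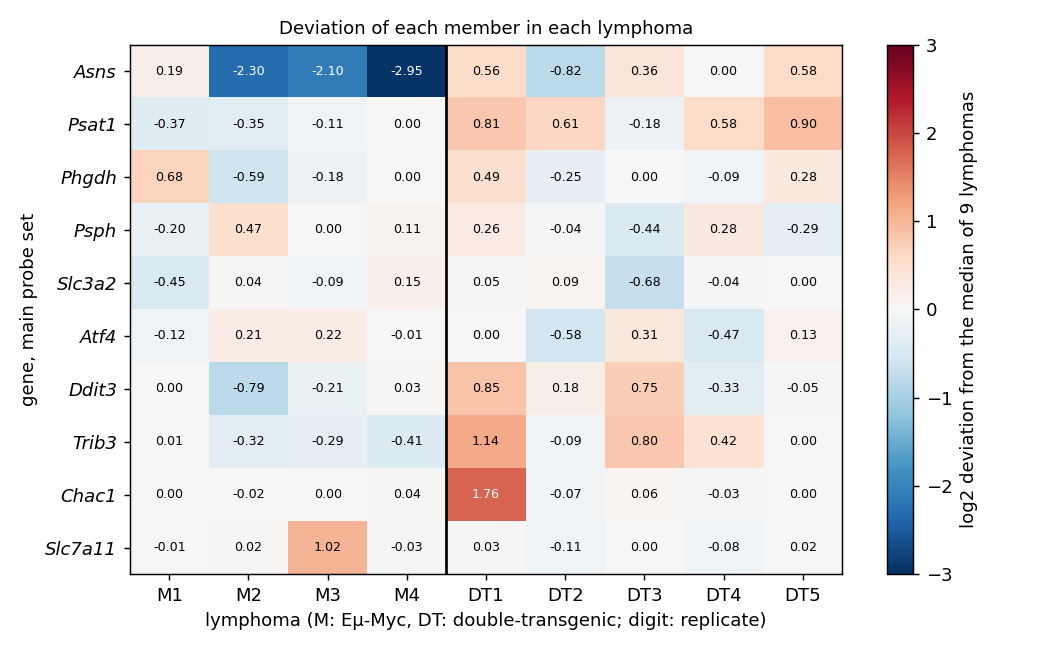
Log2 deviation (colour and printed value) of each gene's main probe set from its median over the 9 lymphomas, with genes in rows and lymphomas in columns (M, Eμ-Myc; DT, double-transgenic; digit, replicate). Asns is lowest in M2, M3 and M4, Ddit3, Trib3 and Chac1 are highest in DT1, and Psat1 is high in DT1, DT2, DT4 and DT5.

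Between the genotypes, the other genes were split in direction. Of the 10 genes, 7 passed the limit in at least 4 of 9 lymphomas and entered the fit with limma over 10172 genes. Of the 6 besides Asns, 3 had a mean difference above 0 (Psat1, Ddit3 and Phgdh) and 3 below (Atf4, Psph and Slc3a2), where 58.9% of all tested genes lay above 0. With limma 0 of the 6 had an adjusted p under 0.05, and neither had any gene on the array (0%). At an unadjusted p under 0.05, 1 of these 6 (Psat1) was counted, against 5.67% of all tested genes, or 3.87% when only higher genes are counted. For 0 of the 20 probe sets were the groups free of overlap, where 1.64% of tested genes had groups that did not overlap. The 20 include several probe sets per gene and some under the limit, while each tested gene counts 1 probe set. At so small a share, a count of 0 among 20 says little. A p above the threshold does not show that levels were alike, and the intervals above give the changes that remain possible.

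**Figure D4:**
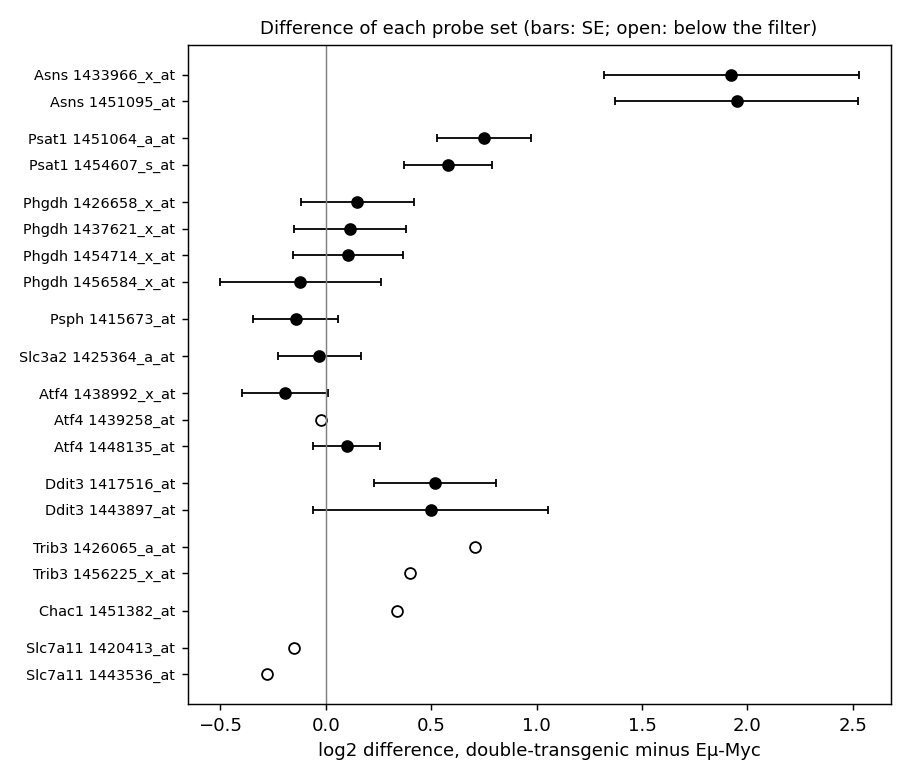
Log2 difference, double-transgenic minus Eμ-Myc, of each of the 20 probe sets (x axis); filled points passed the limit in at least 4 lymphomas and carry bars of 1 SE, open points did not. Both Asns probe sets lie near 1.9, both Psat1 probe sets at 0.58 and 0.75, and the 2 abundant Atf4 probe sets on either side of 0.

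Across the 9 lymphomas, pairs of the genes were compared by Pearson's r. Pairs with Asns are given without a p, since the Asns values chose the set and r carries the genotype difference. Asns and Trib3 had r = 0.75, and r = 0.50 with each group's mean subtracted, where most Trib3 values lie under the limit. Asns and Phgdh had r = 0.64, and 0.79 with group means subtracted. For Asns and Psat1 r was 0.49, and -0.20 with group means subtracted. Eμ-Myc replicate 1 was highest in Asns and lowest in Psat1 of its group, while double-transgenic replicate 5 was highest in both. For Asns and Atf4 r was -0.14, and 0.16 with group means subtracted.

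The 36 pairs without Asns were tested by exact permutation, with p-values adjusted over them. With 0 pairs passing by Pearson's r or by Spearman's rho, and 3 at an unadjusted exact p under 0.05 for r, no pair was shown to vary together. Of the 36 correlations, 19 were positive, and the median r was 0.02. Ddit3 and Trib3 had r = 0.75 (exact permutation p = 0.0200, adjusted 0.567) and rho = 0.48 (exact p = 0.194, adjusted 0.591), falling to r = 0.53 without the 2 lymphomas farthest from the Ddit3 median. Trib3 and Chac1 had r = 0.71 (exact permutation p = 0.0315, adjusted 0.567) and rho = 0.36 (exact p = 0.353, adjusted 0.848). Without double-transgenic replicates 1 and 3 their r was -0.45, so that relation rests on those lymphomas. Psph and Slc3a2 had r = 0.67 (exact permutation p = 0.0483, adjusted 0.580) and rho = 0.47 (exact p = 0.213, adjusted 0.591), with r = 0.42 without Eμ-Myc replicate 2 and double-transgenic replicate 3.

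The genes whose values were most like those of Asns over the 9 lymphomas, by Pearson's r among 10165 other tested genes, were A530088E08Rik (0.97), Cmtr2 (0.91), Mlf2 (0.90), Zfp664 (0.90) and Sirt5 (0.89). This r carries the genotype difference. With group means subtracted it was 0.94, 0.80, 0.78, 0.77 and 0.80, in the same order. Sirt5 encodes a mitochondrial deacylase and Cmtr2 an enzyme that methylates mRNA caps. Sirt5 read 9.37, 5.92, 8.21 and 6.45 in Eμ-Myc replicates 1 to 4, and every double-transgenic lymphoma lay between 8.75 and 9.28, so the highest value was that of Eμ-Myc replicate 1. For Psat1 the nearest were Dleu7 (0.95), Itpkb (0.90), Car2 (0.90), Chst14 (0.90) and Acot11 (0.89). With group means subtracted their r was 0.92, 0.74, 0.75, 0.84 and 0.83. Car2, for a carbonic anhydrase, had the highest difference of all 10172 tested genes, 6.11. It read 3.14 to 7.20 in Eμ-Myc lymphomas and 6.90 (replicate 3) to 15.05 in double-transgenic ones. In Eμ-Myc replicates 1 and 2 it read 3.26 and 3.14, under the limit of 4, so the size of that difference is poorly determined. Dleu7 and Acot11 also had values under the limit. The like genes were chosen as the highest of many, so their r describes likeness only. None of these 10 is among the lists of ATF4 targets and amino acid genes described next.

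Of 23 further ATF4 targets that were tested, 10 had a difference above 0 and 13 below, with a median log2 difference of -0.05, beside 0.05 over all tested genes. With limma 0 of the 23 passed, and 1 had an unadjusted p under 0.05, a share near the 5.67% of all tested genes. That gene was Vegfa, a growth factor for blood vessels, at 1.27 (95% interval 0.15 to 2.39, limma adjusted p = 0.845), where Eμ-Myc lymphomas read 5.78 to 7.48 and double-transgenic ones 7.25 to 9.24. Cth, for the cystathionine lyase that makes cysteine, had 1.17 (95% interval -0.94 to 3.27) where Eμ-Myc lymphomas read 6.73 to 10.10 and double-transgenic ones 7.85 to 11.01. At the other end, Cebpb, a transcription factor that pairs with ATF4, had -0.94 (95% interval -2.19 to 0.30). Tubb3, a tubulin gene, had -0.98 (95% interval -3.69 to 1.73), where Eμ-Myc replicate 4 stood at 9.09 and the other 8 lymphomas at 3.36 to 6.24. Its values in Eμ-Myc replicates 1 and 3 and in double-transgenic replicates 1, 3 and 5 lay under the limit of 4. The list's median ran from -0.20 without double-transgenic replicate 1 to 0.11 without Eμ-Myc replicate 3, so its sign depended on single lymphomas.

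Of 18 other amino acid synthesis genes, 11 were higher and 7 lower, with a median of 0.04, and with limma 0 passed and 0 had an unadjusted p under 0.05. Cth, which also stands in the previous list, and Gpt2 (1.10, 95% interval -0.26 to 2.47), the mitochondrial alanine aminotransferase, were at the upper end. Glul, for glutamine synthetase, had -0.52 (95% interval -1.21 to 0.16) and Ass1, for argininosuccinate synthase, -0.51 (95% interval -2.05 to 1.04). Gpt2 read 5.38 to 8.47 in Eμ-Myc lymphomas, against 7.54 to 8.63 in double-transgenic ones.

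Of 14 amino acid transporter genes besides the 2 described, 7 were higher and 7 lower, with a median of 0.01, and with limma 0 passed and 0 had an unadjusted p under 0.05. Slc1a4, which carries alanine, serine and cysteine, had 0.75 (95% interval -0.07 to 1.57) with its highest value, 9.09, in double-transgenic replicate 1. Slc36a4 had 0.59 (95% interval -1.92 to 3.10), Slc7a8 -0.44 (95% interval -1.42 to 0.53) and Slc38a9, an arginine sensor of lysosomes, -0.49 (95% interval -1.24 to 0.26). The highest Slc38a9 value was 11.02, in Eμ-Myc replicate 1, and the other 8 lymphomas lay at 9.01 to 10.14.

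The cytosolic aminoacyl-tRNA synthetases, which charge tRNAs, had differences within a narrow range. Of 19 tested, 11 were higher and 8 lower, from -0.14 to 0.37, with a median of 4.85e-03, and with limma 0 passed and 0 had an unadjusted p under 0.05. Cars (0.37, 95% interval -0.15 to 0.90) and Tars (0.29, 95% interval -0.03 to 0.60) stood at the upper end, and Lars (-0.12) and Hars (-0.14) at the lower. Of the 12 tested synthetase genes with a promoter entry, 5 held the TGATGNAA core (Tars, Yars, Aars, Iars and Gars), or 41.7%, beside 4.51% of all genes with an entry. The same count was 7 of 19 for the further ATF4 targets, 1 of 14 for the synthesis genes, 2 of 11 for the transporters, 0 of 10 for the eIF2 list and 0 of 15 for the unfolded protein response list.

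Of 13 genes for the eIF2 kinases and their regulators, the regulatory subunits of the eIF2 phosphatase and the exchange factor eIF2B, 8 were higher and 5 lower, with a median of 0.04, and with limma 0 passed and 0 had an unadjusted p under 0.05. Eif2ak3, for the kinase PERK of the endoplasmic reticulum, had 0.30 (95% interval -0.40 to 1.00), and Eif2ak2, for the kinase PKR, 0.36 (95% interval -0.35 to 1.07). Eif2ak1, for the haem-regulated kinase, had -0.25 (95% interval -0.64 to 0.14). Ppp1r15a, also among the ATF4 targets, encodes GADD34, which directs dephosphorylation of eIF2, and had -0.20 (95% interval -0.67 to 0.26).

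Genes of the other branches of the unfolded protein response were split, with 9 of 18 higher and 9 lower and a median of 0.01. With limma 0 of the 18 passed, and 4 had an unadjusted p under 0.05, of which 1 was higher and 3 lower, against 3.87% and 1.8% of all tested genes. Atf6, for the membrane-bound factor that starts 1 branch, had -0.69 (95% interval -1.18 to -0.19, limma adjusted p = 0.845), where Eμ-Myc lymphomas read 8.98 to 9.72 and double-transgenic ones 8.52 to 9.32. Ern1, for the sensor IRE1 of the other, had -0.65 (95% interval -1.22 to -0.07, limma adjusted p = 0.845). Creld2, a chaperone gene, had 0.53 (95% interval 0.08 to 0.99, limma adjusted p = 0.845), and Sdf2l1 had 0.46 (95% interval -0.49 to 1.40). The medians of the transporter, synthetase, eIF2 and unfolded protein response lists, all near 0, changed sign when single lymphomas were left out.

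**Figure D5:**
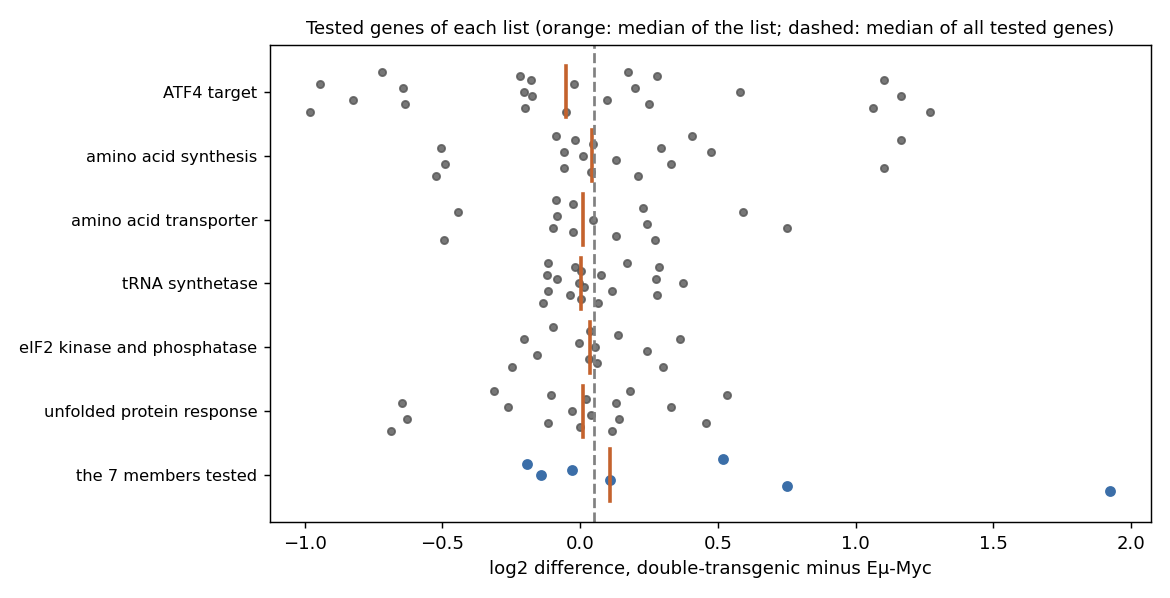
Log2 difference, double-transgenic minus Eμ-Myc (x axis), of each tested gene in 6 lists of related genes (grey) and of the 7 tested members (blue), with the median of each list (orange) and of all 10172 tested genes (dashed, 0.05). List medians lie between -0.05 and 0.04, and Asns is the member farthest from 0.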

How the data were processed

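Per the submitters' processing notes the arrays were summarised with GCRMA, which corrects background by probe sequence and normalises quantiles between arrays. No GCRMA version is stated in those sources. The authors deposited linear intensity values per probe set, from 1.56 to 123105, and these were converted to log2 with no pseudocount. Scanner files, detection calls and scan dates were not analysed here.

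The platform annotation gave 1 gene for 34945 of 45037 probe sets, several for 932 and none for 9160, and 34741 of the first kind matched the RefSeq gene table (GRCm38.p6), used for names and gene order. Each gene was represented by its brightest probe set, and genes over log2 4 in at least 4 of 9 arrays were tested with limma 3.58.1 in R 4.3.3 (two-sided, Benjamini-Hochberg over 10172 genes, threshold 0.05). The method was tested on simulated data. Correlations used exact permutation in Python 3.11.15. Promoters came from RefSeq.

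The members and lists were chosen with earlier results of these data known. Named genes were the members, up to 2 tested genes at each end of a list, and the 5 genes most like Asns and Psat1. Further ATF4 targets with their highest or lowest value in double-transgenic replicate 1 were named after seeing the data. Other marker lists, as summed intensity in Eμ-Myc and then double-transgenic lymphomas, ran from 6167 to 12871 and 5541 to 10065 for plasma cells, 45.8 to 389 and 40.8 to 95.5 for T cells, 6879 to 23795 and 6514 to 15274 for macrophages, 9.81 to 10.3 and 9.74 to 12.2 for erythroid cells, and 5352 to 33842 and 2104 to 30618 for stroma. The labels call the samples biological replicates; p-values measure the spread between these lymphomas.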

Additional observations from a re-analysis of the deposited data

Results flagged for a closer look

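In 8 of 106 groups of values a single lymphoma was separated by a wide gap, which chance gives in about 1 group in 20. Of these 8, 4 were in the 40 groups of the 10 genes' probe sets. Chac1 read 4.20 in double-transgenic replicate 1, while its 4 companions lay at 2.38 to 2.50. Slc7a11 read 3.89 and 2.45 on its 2 probe sets in Eμ-Myc replicate 3, against 2.83 to 2.89 and 1.89 to 1.92 in the rest of its group, all below the limit of 4. Slc3a2 read 10.28 in double-transgenic replicate 3, against 10.92 to 11.05. Among the genes named at the ends of lists, Ass1 read 6.62 in double-transgenic replicate 1 (5.12 to 5.40 in the rest). Lars read 11.65 in Eμ-Myc replicate 2 (12.07 to 12.15). Sdf2l1 read 9.41 in Eμ-Myc replicate 1 (10.89 to 11.17) and Atf6 8.98 in Eμ-Myc replicate 3 (9.61 to 9.72).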

How the results depend on the processing

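Of 275 values recomputed under alternatives, 263 were taken as kept, Asns values among them. Differences and medians were kept if they held their direction and side of the threshold or moved by less than the spread between replicates. Counts were kept if their ratio to the reported count was small. For example, members higher in double-transgenic lymphomas were 4 of 7 as reported, 3 of 7 with chromosomes centred and 6 of 10 with no filter. No gene was called with limma except when Eμ-Myc replicate 3 (8 genes) or Eμ-Myc replicate 4 (1 gene) was left out, a range of 0 to 8 over the 9 such fits, and none of the 6 other tested members passed in any of them. Asns ran from 1.54 to 2.58 and Psat1 from 0.66 to 0.93 in those fits. Signs turned for Phgdh (-1.29e-04 with chromosomes centred, -0.081 to 0.34 with lymphomas left out, the lowest without Eμ-Myc replicate 2), for Slc3a2 (-0.15 to 0.11 with lymphomas left out: 0.01 without Eμ-Myc replicate 2, 0.05 without Eμ-Myc replicate 4 and 0.11 without double-transgenic replicate 3) and for Atf4 (0.10 without _x_at probe sets); the causes were not tested. The median of the ATF4 targets ran from -0.20 to 0.11 that of the transporters from -0.018 to 0.16, of the unfolded protein response list from -0.13 to 0.14, of the synthetases from -0.058 to 0.088 and of the eIF2 list from -0.048 to 0.096 with lymphomas left out. With the pairs of Asns included, as first planned, 0 of 45 pairs passed. Because the Asns values chose the set, that count is not a test of the Asns pairs. The alternatives without _x_at probe sets, with neighbours subtracted and with 21 or 36 pairs were chosen after seeing the data. With the replicate block, limma called 0 genes, and Asns differed by 1.81 and Psat1 by 0.66. These differences are the same as without double-transgenic replicate 5, the only lymphoma with that number. The block is therefore no separate check of their size. The labels used here state no pairing of the lymphomas. Deviations of same-numbered lymphomas correlated at -0.09, 0.09, -3.34e-03 and 0.20, and 2 of 4 correlated best with their own number. These correlations cannot decide whether the numbers pair the lymphomas. Background correction could not be varied from processed values. Values under the limit of 4 bound what can be said of Trib3, Chac1 and Slc7a11.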

Other observations

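Identical values in different arrays were common in the deposited table: 17.2% of the 10172 tested genes had the same value in at least 2 lymphomas. Of the 10 genes described, Chac1 alone had such values, with 2.45 in Eμ-Myc replicates 1 and 3 and in double-transgenic replicate 5.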
